A study of Mus musculus with 6 samples.

Results

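The BCL2 family controls whether the outer membrane of mitochondria stays intact, and 10 of its genes were read in RNA from sorted mouse hematopoietic stem cells (HSC), which make all other blood cells. The members were taken by name from the deposited gene table: the survival genes Bcl2, Bcl2l1 and Mcl1, the pore-forming effectors Bax and Bak1, and the BH3-only genes Bcl2l11, Bid, Bbc3, Pmaip1 and Bad. They are 10 of 24062 genes listed. HSC came from control mice, Nr4a1 fl/fl and Nr4a3-/-, and from CDKO mice, which had these same alleles and in addition Rosa26-ERt2. Both groups thus lacked Nr4a3 and carried floxed Nr4a1. Mice of both groups received tamoxifen at 120 mg per kg on 4 successive days, and HSC were sorted on day 5. The construct labelled Rosa26-ERt2 is, by background, a tamoxifen-activated Cre recombinase placed at a locus that is active in most cell types, and the controls did not carry it. Each library was made from a pool of 3 to 5 mice, with 3 libraries in each group, and p-values measure the spread between these pools. The ages and sexes of the mice and the markers of the sort are not given in the sources used here. Cre and loss of Nr4a1 came in the same libraries and cannot be told apart, and the labels name no preparation batch.

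As background, BCL2, BCL-XL (from Bcl2l1) and MCL1 hold BAX and BAK inactive. BH3-only proteins, raised by stress or by loss of growth factor signals, bind the survival proteins or activate BAX and BAK directly. The effectors then open the membrane, cytochrome c leaves, and caspases are started. HSC are known to depend on MCL1 for survival, and BIM (from Bcl2l11), PUMA (from Bbc3) and NOXA (from Pmaip1) are the BH3-only proteins best known in blood cells.

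The targeted gene was read first. Nr4a1 stood at 15.2, 13.4 and 12.9 counts per 1000000 reads (CPM) in control replicates 1 to 3 and at 8.52, 9.77 and 9.12 CPM in CDKO replicates 1 to 3, and fell by 0.55 on the log2 scale (SE 0.12, limma adjusted p = 0.00204). Gene counts do not separate deleted from kept exons. Nr4a3 had 0 reads in all 6 libraries. The libraries held 32863805 to 42772261 counted reads, so that a count of 0 allowed a level of 0.0701 to 0.0913 CPM (3 counts, counting error only). Of 12 HSC markers 5 rose and 6 fell, and their summed level was 4990 to 5235 CPM in control and 4573 to 4767 CPM in CDKO pools. All 10 neutrophil markers fell, from a summed 782 to 1028 CPM in control pools to 16.7 to 83.3 CPM in CDKO pools, with CDKO replicate 3 the highest of its group. Of 6 tested erythroid markers 5 fell, and these 5 summed to 175 to 197 CPM in control and 14.1 to 16.5 CPM in CDKO pools. With Epor, which did not pass, the sums were 202 to 224 and 43.1 to 49.1 CPM. Hbb-bt and Hba-a1 had 0 reads. Of 7 mast cell and basophil markers 6 fell, with a summed level of 213 to 275 CPM in control pools and at most 11.7 CPM in CDKO pools. With Gata2, which did not pass and makes up most of the level of that list, the sums were 702 to 745 and 460.1 to 482 CPM. B cell markers summed to 45.9 to 54.5 CPM and 57.7 to 61.4 CPM, with Ms4a1 and Pax5 at 0 reads. T cell markers summed to 0.0256 to 0.401 CPM and 2.24 to 2.98 CPM, with Cd3e, Cd3g and Cd8a at 0 reads, and Cd4, the 1 tested, rose (limma adjusted p = 1.07e-05). Macrophage markers, of which 4 rose and 2 fell, summed to 31.7 to 34.2 CPM and 48.3 to 50.7 CPM. The part of these other cell types in the results that follow was not tested. In pooled cells, fewer cells of a type and less RNA per cell cannot be told apart.

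Of the 10 members 5 rose in CDKO HSC: Pmaip1, Bcl2l1, Bcl2l11, Bax and Bid. None fell by limma, at an adjusted p or at an unadjusted p under 0.05, nor at an adjusted p by edgeR or DESeq2. At an unadjusted p under 0.05 the count of members lower was 0 by edgeR and 1 by DESeq2, which was Bbc3. The test was limma on log2(CPM + 1), two-sided, with a Benjamini-Hochberg adjusted p under 0.05 over 13732 genes. All 10 members passed the filter of a mean of at least 10 reads. Over all tested genes 66.2% were called, so that 5 of 10 called is no more than the background. By direction, 5 of 10 members rose against 31.1% of tested genes, and 0 of 10 fell against 35.2%. The median log2 difference was 0.14 over the 10 members and -0.02 over all tested genes. The 3 CDKO values lay all on one side of the 3 control values for 6 of 10 members, against 70.7% of all tested genes. Of the 6, the 5 that rose lay above (33.4% of tested genes) and Bbc3 lay below (37.2%).

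The starts of 4 of the members that rose together are shown for what their upstream sequence does and does not hold. Of the 10 members 9 matched RefSeq promoters (build GRCm38.p6, 15 start sites), and the 250 bases before each start were searched on both strands. Pmaip1 had no match, so its promoter was not searched. The NR4A response element AAAGGTCA, the interferon-stimulated response element core and the cAMP response element TGACGTCA were in 0 of 15, against 1.34%, 2.98% and 1.55% of 32851 promoters of the same length. The FOXO core GTAAACA was in 2 of 15 (3.17% of all) and the E-box CACGTG in 2 of 15 (6.02% of all). A p53 half-site, 1 of the 2 parts of a full p53 site, was in 1 of 15 (7.13% of all). Capitals mark every match of these motifs. Bcl2l11 (chr2:128125788-128126037, plus strand) held the FOXO core, 227 bases before the start. The other Bcl2l11 start (chr2:128127325-128127574, plus strand) held none of the 6 motifs. Bax (chr7:45466899-45467148, minus strand) held the p53 half-site, 201 bases before the start, and the E-box, 9 bases before it. Bid (chr6:120916825-120917074, minus strand) and the outermost of 3 Bcl2l1 starts (chr2:152831729-152831978, minus strand) held none of the 6 motifs. The other matches were in Bbc3, a FOXO core and an E-box at different starts.
Bcl2l11: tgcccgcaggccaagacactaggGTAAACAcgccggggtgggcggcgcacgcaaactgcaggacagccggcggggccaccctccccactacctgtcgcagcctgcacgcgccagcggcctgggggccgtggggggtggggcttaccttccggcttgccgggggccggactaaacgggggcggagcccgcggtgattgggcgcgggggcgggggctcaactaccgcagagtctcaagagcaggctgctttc
Bax: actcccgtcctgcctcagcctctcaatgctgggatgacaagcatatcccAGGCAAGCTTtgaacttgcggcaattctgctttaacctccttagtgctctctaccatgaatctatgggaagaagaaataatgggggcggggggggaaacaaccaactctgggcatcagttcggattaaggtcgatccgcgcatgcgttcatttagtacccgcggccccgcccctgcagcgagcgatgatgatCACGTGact
Bid: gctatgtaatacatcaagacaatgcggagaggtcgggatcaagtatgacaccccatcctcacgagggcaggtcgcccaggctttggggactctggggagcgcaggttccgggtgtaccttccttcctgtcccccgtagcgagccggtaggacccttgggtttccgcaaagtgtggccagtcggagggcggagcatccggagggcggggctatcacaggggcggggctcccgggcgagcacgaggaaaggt
Bcl2l1: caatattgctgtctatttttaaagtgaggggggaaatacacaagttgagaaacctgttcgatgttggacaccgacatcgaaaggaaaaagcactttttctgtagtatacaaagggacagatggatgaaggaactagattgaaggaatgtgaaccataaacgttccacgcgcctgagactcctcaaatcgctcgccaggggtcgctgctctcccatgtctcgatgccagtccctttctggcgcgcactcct

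Among the survival genes Bcl2l1 rose, while Bcl2 and Mcl1 did not pass the test. Bcl2l1, which encodes BCL-XL (GRCm38 chromosome 2, 152780668 to 152831728, minus strand), stood at 69.2, 68.0 and 77.8 CPM in control replicates 1 to 3 and at 110.0, 107 and 114 CPM in CDKO replicates 1 to 3. The groups did not overlap, and the lowest CDKO pool was 1.37 times the highest control pool. The mean rose 1.54-fold, from 71.6 ± 5.33 to 110.0 ± 3.52 CPM (SD, n = 3), a difference of 0.61 in log2(CPM + 1) (SE 0.06, limma adjusted p = 7.08e-06). Gene counts do not separate the long, protective form of BCL-XL from the short form that promotes death.

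Bcl2 (chromosome 1, 106538178 to 106714274, minus strand), the founding survival gene of the family, read 174, 174 and 182 CPM in the controls and 200.3, 180.4 and 191 CPM in the CDKO pools. The groups overlapped, since CDKO replicate 2 lay below control replicate 3. The log2 difference was 0.11 (SE 0.05, limma adjusted p = 0.0749). This value sat near the threshold: Bcl2 passed without CDKO replicate 2 (limma adjusted p = 0.0285), with TMM scaling (limma adjusted p = 0.0488), by DESeq2 (adjusted p = 0.0185) and in the authors' deposited table (adjusted p = 0.0322). In each of these its log2 difference was under 0.2. Mcl1, whose protein turns over fast (chromosome 3, 95658788 to 95663176, plus strand), read 206, 237 and 207 CPM in the controls and 226, 220.1 and 231 CPM in the CDKO pools. Control replicate 2 was the highest of the 6 libraries, so the groups overlapped. Its log2 difference was 0.06 (95% interval -0.06 to 0.18, limma adjusted p = 0.346). Without control replicate 2 it was 0.13 (limma adjusted p = 0.0405), and over all alternatives its adjusted p ran from 0.0405 to 0.713.

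**Figure D1:**
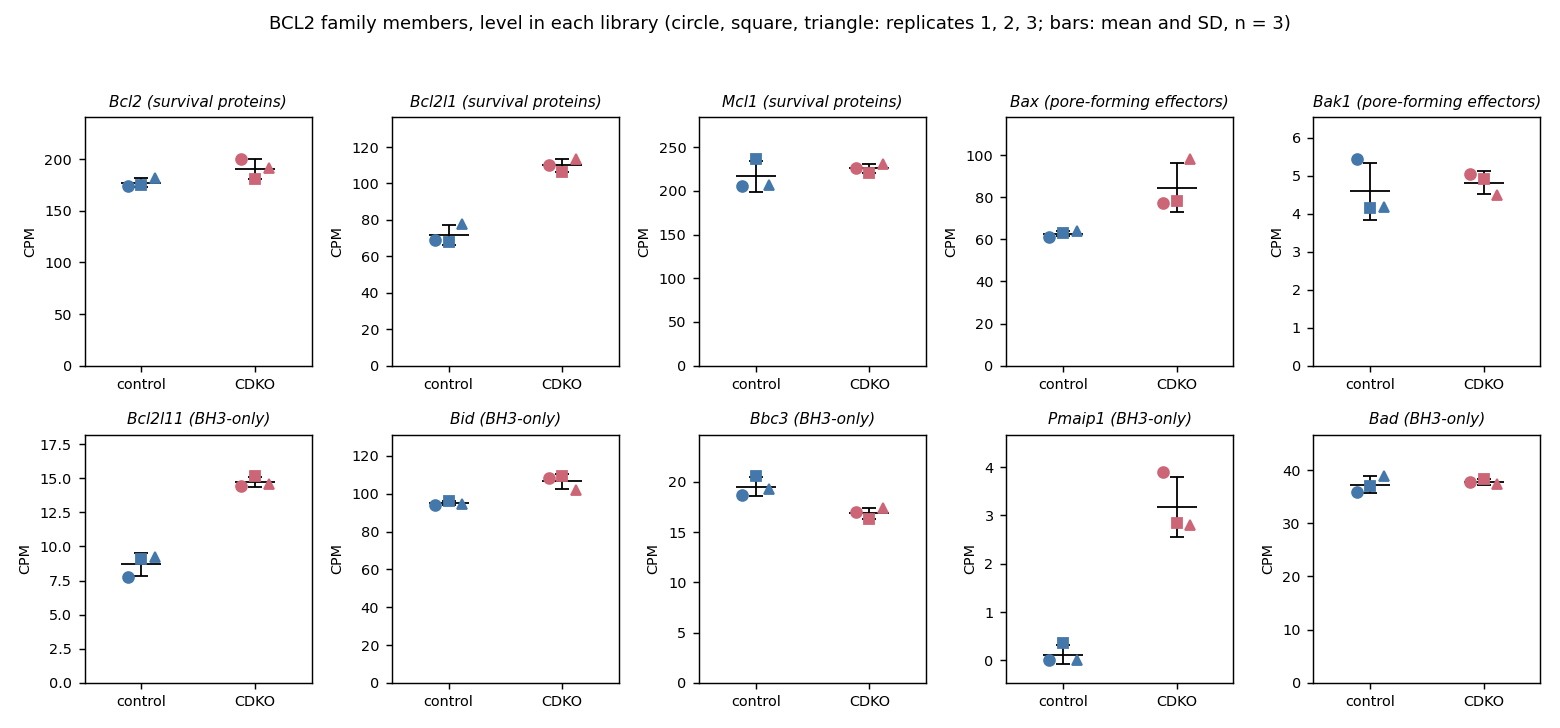
Level of each of the 10 members in counts per 1000000 reads (CPM, vertical axis from 0 except for Pmaip1) in the 3 control and 3 CDKO libraries, with mean and SD as bars. Bcl2l1, Bax, Bcl2l11, Bid and Pmaip1 have all 3 CDKO libraries above all 3 control libraries, Bbc3 has all 3 below, and the other 4 overlap.

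Of the effectors Bax rose and Bak1 did not pass. Bax (chromosome 7, 45461697 to 45466898, minus strand) stood at 61.3, 62.9 and 63.7 CPM in control pools and at 77.3, 78.2 and 98.2 CPM in CDKO pools. All 3 CDKO pools were above the controls, and CDKO replicate 3 stood apart from the other two. The mean rose 1.35-fold, from 62.6 ± 1.24 to 84.5 ± 11.8 CPM (SD, n = 3). The log2 difference was 0.42 ± 0.08 (SE, adjusted p = 0.00104 by limma). Without CDKO replicate 3, the library with the highest neutrophil markers of its group, the log2 difference was 0.31 and the call stood. Over 192 bases, 12.2% of its exon length, Bax overlaps exons of Gm45808, a protein-coding gene on the same strand. Gm45808 was not among the genes listed. Bak1, the second effector (chromosome 17, 27019810 to 27029009, minus strand), was read at 5.45, 4.14 and 4.18 CPM in the controls and at 5.05, 4.92 and 4.49 CPM in the CDKO pools, from 151 to 213 reads a library. The groups overlapped, and the log2 difference was 0.07 (95% interval -0.26 to 0.39, limma adjusted p = 0.713). That interval is wide enough to hold a change of the size seen for Bid. Exons of Bak1 overlap annotated entries of Ggnbp1 on the opposite strand, by 437 and by 177 bases. Ggnbp1 itself fell (5.14 to 3.21 CPM, limma adjusted p = 0.0249). The sources used here do not say whether reads were counted by strand.

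The BH3-only genes differed among themselves. Bcl2l11, which encodes BIM, a direct activator that also binds every survival protein of the family (chromosome 2, 128126038 to 128162547, plus strand), stood at 7.75, 9.08 and 9.26 CPM in the controls and 14.5, 15.2 and 14.6 CPM in the CDKO pools. The CDKO pools lay close together and above all controls. The mean rose 1.70-fold, from 8.69 ± 0.825 to 14.7 ± 0.378 CPM (SD, n = 3). The log2 difference was 0.70 ± 0.12 (SE, adjusted p = 0.000337 by limma). Among all tested genes 23.2% had a larger absolute log2 difference than Bcl2l11, and 27.3% a larger one than Bcl2l1.

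Pmaip1, which encodes NOXA, a p53 target that binds MCL1 (chromosome 18, 66458533 to 66465565, plus strand), went from near absence to a low level. In control replicates 1 and 3 it had 0 reads, which allow up to 0.0767 and 0.0708 CPM, and control replicate 2 had 13 reads (0.357 CPM). CDKO replicates 1 to 3 had 128, 118 and 120 reads, or 3.89, 2.85 and 2.81 CPM. The lowest CDKO pool was 7.87 times the highest control pool. The difference in log2(CPM + 1) was 1.91 (SE 0.18, limma adjusted p = 4.62e-06), and 3.01% of tested genes had a larger absolute difference. The size depends on the added pseudocount, at 2.61 with 0.5 and 0.67 with 5, and was 4.78 by edgeR and 4.77 by DESeq2 on recovered reads, which is no bound since 2 control pools had no read. The call was lost in the authors' deposited table (log2 fold change 1.35, adjusted p = 0.0683) and by DESeq2 with a prior on the fold change and no filter (log2 fold change 0.28, adjusted p = 0.176). Over all alternatives run its adjusted p ran from 1.41e-06 to 0.176. The 3 tested genes most like Pmaip1 over the 6 libraries, by Pearson's r of log2(CPM + 1), were Gm1966, Parp11 and Urb2, each at r = 0.999. With 6 libraries in 2 groups such likeness is common, and 1772 genes had an r over 0.95 with Pmaip1.

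Bid, which is cleaved by caspase-8 to link death receptors to mitochondria (chromosome 6, 120891930 to 120916853, minus strand), stood at 94.2, 96.1 and 94.4 CPM in the controls and at 108, 109 and 102 CPM in the CDKO pools. The groups did not overlap. The rise was small, 1.12-fold, with a log2 difference of 0.17 ± 0.05 (SE, adjusted p = 0.0121 by limma), and 71.9% of tested genes had a larger absolute difference. Its exons overlap 628 bases of Bcl2l13 on the opposite strand, which read 79.3 ± 2.93 CPM in the controls and 71.9 ± 10.2 CPM in the CDKO libraries (SD, n = 3) and did not pass (limma adjusted p = 0.151).

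Bbc3 and Bad did not pass. Bbc3, which encodes PUMA, a p53 target and strong inducer of death (chromosome 7, 16308393 to 16318205, plus strand), read 18.7, 20.6 and 19.3 CPM in the controls and 16.9, 16.3 and 17.4 CPM in the CDKO pools. All 3 CDKO pools lay below all 3 control pools but the log2 difference of -0.20 (95% interval -0.42 to 0.02) missed the threshold (limma adjusted p = 0.0973). Corrected for GC and exon length, its log2 difference was -0.05 (limma adjusted p = 0.702), and its transcripts have the highest GC content of the 10 members, 67.1%. Bad, whose protein is held inactive by growth factor signals (chromosome 19, 6941861 to 6951899, plus strand), read 35.9, 37.1 and 38.9 CPM in the controls and 37.8, 38.4 and 37.3 CPM in the CDKO pools. Its groups overlapped, and its log2 difference was 0.02 (95% interval -0.14 to 0.18, limma adjusted p = 0.806). Its exons overlap 524 bases of Gpr137 on the opposite strand, which did not pass either (20.6 and 23.9 CPM on average, limma adjusted p = 0.0894).

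The members Bax, Bbc3 and Pmaip1 are textbook targets of p53. In these libraries Trp53, the p53 gene, rose 1.12-fold, from 539 ± 9.59 to 605 ± 9.24 CPM (SD, n = 3, limma adjusted p = 0.00193), while the 3 targets had log2 differences of 0.42, -0.20 and 1.91. The level of Trp53 RNA is not p53 activity, which was not measured, and a part of p53 in these values was not tested.

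**Figure D2:**
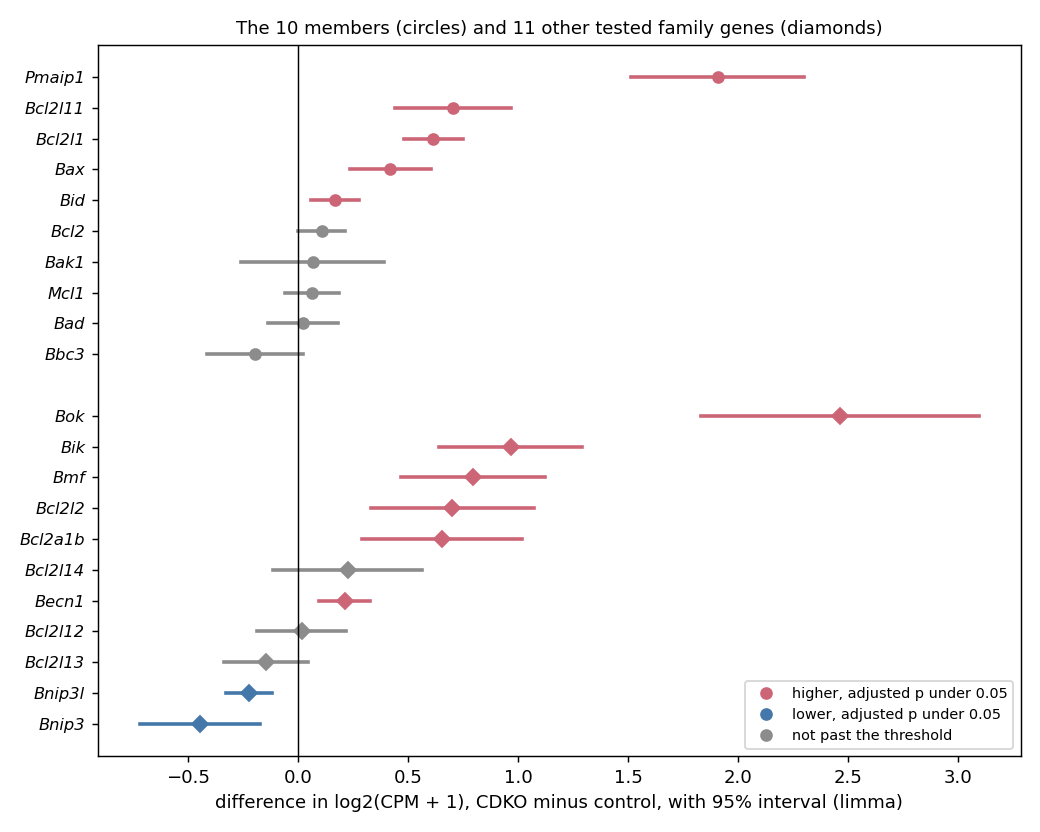
Difference in log2(CPM + 1), CDKO minus control, with its 95% limma interval (horizontal axis) for the 10 members (circles) and 11 other tested genes of the family (diamonds). Pmaip1 (1.91) and Bok (2.46) lie farthest to the right, the intervals of Bcl2, Mcl1, Bak1, Bad and Bbc3 include 0, and Bnip3 and Bnip3l lie to the left.

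Levels of different genes were compared per kilobase of exon. By the union of annotated exons (GENCODE M21), control HSC had Mcl1 highest, at 63.4 ± 5.12 CPM per kb (SD, n = 3), then Bax at 39.7 ± 0.790 and Bid at 26.7 ± 0.308 CPM per kb. Bcl2 followed at 19.3 ± 0.479, Bcl2l1 at 15.6 ± 1.16, Bad at 14.6 ± 0.594 and Bbc3 at 9.18 ± 0.453 CPM per kb. Bak1, at 1.91 ± 0.308, Bcl2l11, at 1.08 ± 0.103, and Pmaip1, at 0.0435 ± 0.0753 CPM per kb, were lowest. Bcl2l1 and Bad, neighbours in this order, did not differ beyond their spread in control pools. In CDKO pools the order was kept except that Bcl2l1 (24.0 ± 0.767 CPM per kb) stood above Bcl2 (20.8 ± 1.09 CPM per kb). The order depends on the length used: per kb of the median transcript, Bid (169 CPM per kb in control) stood above Mcl1 (101 CPM per kb) and Bax (92.9 CPM per kb), and Bcl2l1 (51.1 CPM per kb) already stood above Bcl2 (35.3 CPM per kb). With both lengths Mcl1 was the highest survival gene and Pmaip1, Bak1 and Bcl2l11 were the lowest of the 10.

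Ratios of 2 members in the same library do not depend on how libraries are scaled, and they are given as descriptions with no test. Bcl2l1 over Bcl2 was 0.397, 0.389 and 0.427 in control and 0.549, 0.590 and 0.594 in CDKO pools, higher in every CDKO pool. Since Bcl2 did not pass the test, this ratio largely restates the rise of Bcl2l1. The share of all gene pairs whose ratios separate this way was not computed, and 70.7% of single tested genes separated. Bcl2l1 over Mcl1 was 0.336, 0.287 and 0.376 in control and 0.487, 0.484 and 0.492 in CDKO pools. Per kb of union exons, the Bcl2l1 share of the summed survival genes was 15.9% ± 1.52 in control and 21.6% ± 0.226 in CDKO pools (SD, n = 3). Bcl2l11 over Bcl2 went from 0.0491 to 0.0775 on average and did not overlap between groups. Bcl2l11 over Bcl2l1, the death gene and the survival gene that both rose, was 0.112, 0.134 and 0.119 in control and 0.131, 0.142 and 0.128 in CDKO pools, and these values overlapped. Bax over Bcl2l1 overlapped as well, at 0.885, 0.926 and 0.820 in control and 0.702, 0.734 and 0.865 in CDKO pools. Bbc3 over Bcl2l11 was 2.25 ± 0.166 in control and 1.15 ± 0.0633 in CDKO pools (SD, n = 3).

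By role, the summed level of the survival genes was 98.3 ± 4.45 CPM per kb of union exons in control and 111 ± 3.12 in CDKO pools (SD, n = 3). That of the effectors, nearly all of it Bax, was 41.7 ± 0.513 and 55.6 ± 7.38 CPM per kb. That of the BH3-only genes, most of it Bid and Bad, was 51.6 ± 1.16 and 55.8 ± 1.22 CPM per kb. All 3 sums were higher in every CDKO pool than in every control pool, as were 33.4% of single tested genes. The ratio of effectors to survival genes, per kb of union exons, was 0.436, 0.404 and 0.433 in control and 0.456, 0.481 and 0.567 in CDKO pools, with CDKO replicate 3 the highest. Per kb of median transcript it was 0.519, 0.492 and 0.512 in control and 0.523, 0.551 and 0.651 in CDKO pools, so the groups barely separated. The ratio of BH3-only to survival genes was 0.525 ± 0.0140 and 0.503 ± 0.0228 (SD, n = 3) and overlapped per kb of union exons, but lay below the controls in every CDKO pool per kb of median transcript (1.28 and 1.18 on average).

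**Figure D3:**
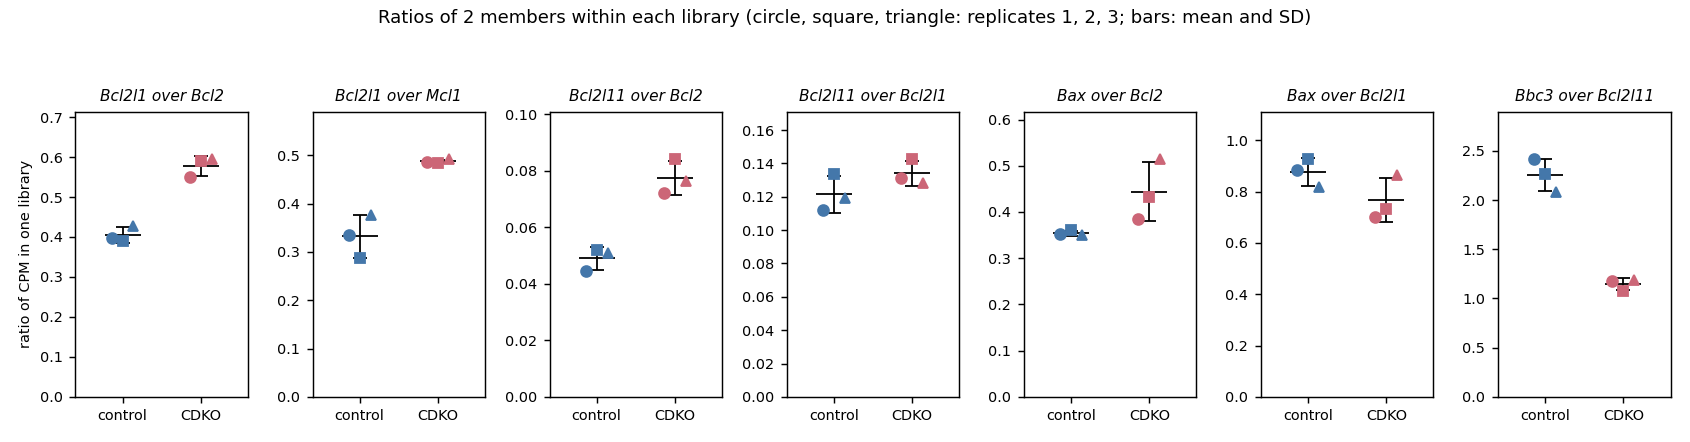
Ratio of CPM of 2 members within each library (vertical axes from 0) in 3 control and 3 CDKO libraries, with mean and SD as bars. Bcl2l1 over Bcl2, Bcl2l1 over Mcl1, Bcl2l11 over Bcl2 and Bax over Bcl2 are higher in every CDKO library, Bbc3 over Bcl2l11 is lower in every CDKO library, and Bcl2l11 over Bcl2l1 and Bax over Bcl2l1 overlap.

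Of 17 further genes of the family, 11 were tested, 6 rose and 2 fell, with a median log2 difference of 0.22 against -0.02 over all tested genes. Over all tested genes 66.2% were called, 31.1% higher and 35.2% lower, so that 8 of 11 called is near the background. Bok, an effector-like member related to Bax and Bak1, had 0, 0.823 and 1.75 CPM in control pools and 7.97, 8.46 and 8.91 CPM in CDKO pools. The control pools varied and the CDKO pools did not overlap them, with a log2 difference of 2.46 ± 0.29 (SE, adjusted p = 2.01e-05 by limma; lost by DESeq2 with a prior on the fold change and no filter, adjusted p = 0.129). Bmf, a BH3-only gene known as a sensor of damage to the cytoskeleton, rose from 3.26 ± 0.544 to 6.35 ± 0.397 CPM (SD, n = 3, limma adjusted p = 0.000668). Bik, also BH3-only, had 1 read in all control pools together and 39, 35 and 38 reads in the CDKO pools (limma adjusted p = 0.000147). Bcl2l2, which encodes the survival protein BCL-W, rose from 3.11 ± 0.297 to 5.74 ± 1.27 CPM (SD, n = 3, limma adjusted p = 0.0033). Bcl2a1b, one of several near-identical copies of the survival gene A1, had 0 to 11 reads in control and 16 to 37 reads in CDKO pools (limma adjusted p = 0.0045), and which copy these reads came from is uncertain. Becn1, an autophagy gene with a BH3 domain, rose 1.16-fold (limma adjusted p = 0.00434).

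Bnip3l and Bnip3, which mark mitochondria for removal, were the 2 that fell. Bnip3l fell from 156 ± 5.31 to 133 ± 3.88 CPM (SD, n = 3, limma adjusted p = 0.00134) and Bnip3 from 26.0 ± 2.12 to 18.9 ± 3.30 CPM (SD, n = 3, limma adjusted p = 0.00755). Bcl2l12, Bcl2l13 and Bcl2l14 did not pass, though Bcl2l13 passed without CDKO replicate 2 and Bcl2l14 with quantile scaling. Bcl2l10 and Hrk had 0 reads in all 6 libraries, and Bcl2a1a, Bcl2a1c, Bcl2a1d and Bcl2l15 were under the filter. Bcl2a1a had 0 reads in control pools and 10 to 19 reads in CDKO pools, on average at least 4.87-fold higher (against the largest control floor, 3 counts in a library or 0.0823 CPM). That bound covers counting error only, and as for Bcl2a1b, which copy of A1 these reads came from is uncertain.

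Genes that act around or after BAX and BAK went both ways: of 13 tested, 6 rose and 4 fell (median log2 difference 0.18). The list holds Mtch2 and the Vdac channels, which are not steps after these effectors. Over all tested genes 66.2% were called, so that 10 of 13 called is near the background. Vdac1 and Vdac3, channels of the outer mitochondrial membrane, rose, Vdac1 from 238 ± 7.88 to 318 ± 14.9 CPM and Vdac3 from 60.6 ± 4.68 to 85.8 ± 2.45 CPM (SD, n = 3, limma adjusted p = 1.47e-05 and 4.80e-05). Apaf1, the scaffold on which caspase-9 is activated, fell from 68.7 ± 2.27 to 52.9 ± 2.45 CPM (SD, n = 3, limma adjusted p = 0.000276). Casp9, the caspase-9 gene itself, rose from 23.5 ± 5.35 to 36.2 ± 2.05 CPM (SD, n = 3, limma adjusted p = 0.00209). Xiap, an inhibitor of caspases, fell from 54.8 ± 3.18 to 40.4 ± 3.81 CPM (SD, n = 3, limma adjusted p = 0.000633). Mtch2, the mitochondrial docking protein of cleaved BID, and Aifm1 were the other two that fell, and Aifm1 lost its call without control replicate 1, control replicate 3 or CDKO replicate 3. Of those that rose, Diablo lost its call without control replicate 1, CDKO replicate 1 or CDKO replicate 3, and Opa1 without control replicate 3 or CDKO replicate 2. Cycs and Endog did not pass, but both were called higher by DESeq2, with quantile scaling, with a pseudocount of 5 and when corrected for GC and length.

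Of 15 regulators of BCL2 family genes and proteins, 3 rose and 11 fell (median log2 difference -0.27), against 31.1% of all tested genes higher and 35.2% lower (median -0.02). Aven, which binds BCL-XL, fell from 85.5 ± 3.19 to 53.8 ± 3.92 CPM (SD, n = 3, limma adjusted p = 7.14e-06). Bag3, a co-chaperone that binds BCL2, fell from 46.5 ± 1.37 to 27.9 ± 2.33 CPM (SD, n = 3, limma adjusted p = 1.80e-05), and Stat5b, a cytokine-activated factor known to act on Bcl2l1, fell by 0.38 on the log2 scale (SE 0.05, limma adjusted p = 2.18e-05). Also lower were Huwe1 and Fbxw7, whose ligases mark MCL1 for destruction, at -0.36 and -0.49, and Usp9x, which spares it, at -0.27 on the log2 scale (limma adjusted p = 9.54e-05, 0.00029 and 0.00133). These 3 are named with their values known and are no tested group. Tmbim6, Ywhaz and Trp53 were the 3 that rose, Tmbim6, an inhibitor of BAX-induced death, from 213 ± 10.8 to 297 ± 9.55 CPM (SD, n = 3, limma adjusted p = 6.80e-06). Corrected for GC and length, 7 regulators fell in place of 11: Foxo1, Foxo3, Stat5a and Mapk8 lost their call, and Stat3 passed as higher. Mapk8, near the threshold (limma adjusted p = 0.0463), also lost its call without any 1 library other than CDKO replicate 1. The Mapk8 call was lost too with replicate number as a block, no filter, TMM or quantile scaling, edgeR and DESeq2 with the prior. Foxo3 also lost its call without control replicate 2 or without CDKO replicate 1.

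**Figure D4:**
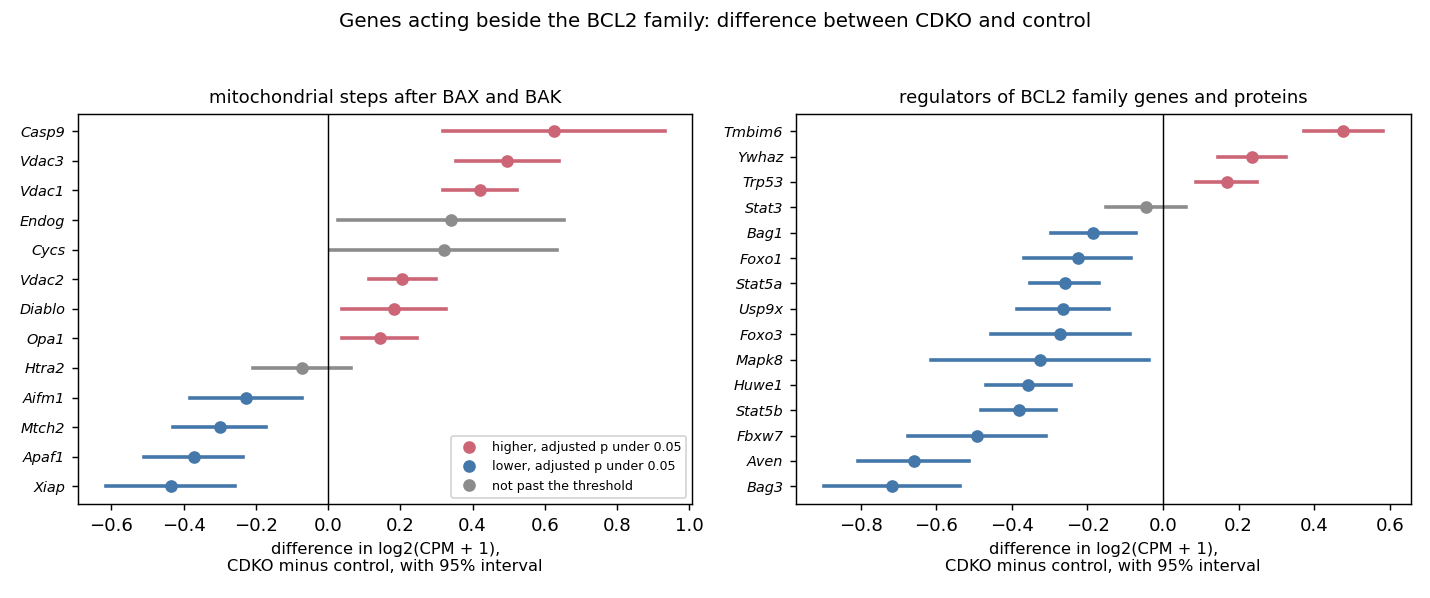
Difference in log2(CPM + 1), CDKO minus control, with its 95% limma interval (horizontal axis) for 13 genes that act around or after BAX and BAK (left) and 15 regulators (right). The left panel bears the title mitochondrial steps after BAX and BAK. On the left 6 genes rose and 4 fell, and on the right 3 rose and 11 fell.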

How the data were processed

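RNA from 3 control and 3 CDKO pools was amplified with a low-input SMARTer kit and made into Nextera XT libraries, per the labels. TopHat2, HTSeq and DESeq2 (no versions) and the build mm10 are named per the submitters' processing notes; the gene annotation is not given in the sources used here. The deposited values per library are CPM, which sum to 1000000. In each library 100.0% of the values above 0 were whole multiples of what 1 read is worth (within 0.01 of a read), so reads were recovered. On these reads edgeR called 4288 genes higher and 4499 lower, against 4264 and 4832 by limma on CPM. The authors' deposited table also gives a baseMean signal, log2 fold changes (control over CDKO, sign turned here), a stat score, and p-values.

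CPM were tested with limma 3.58.1 (R 4.3.3, eBayes with trend) on log2(CPM + 1), CDKO minus control, for genes with a mean of at least 10 reads. Named were the 10 members, Nr4a1 and Nr4a3, the detected family genes, and, of the related lists, the 4 with the smallest p and those called against the list's majority, and the 3 genes most like the member with the smallest p. Further genes and the ratios were chosen with values known. The members and lists were chosen with earlier results of these data known. The 12 date-named genes and 2 rows sharing a symbol were left out. Lengths and coordinates are from GENCODE M21 (GRCm38). Alternatives ran edgeR 4.0.16 or DESeq2 1.42.0 on the recovered reads, other filters, scalings and pseudocounts, a replicate block, leaving out each library, and a loess correction for GC and length, which 95.2% of tested genes had. The test was also run on simulated data in which far fewer genes changed than were called here, and no result above rests on it. Reads are amplified molecules without identifiers, so floors cover counting error only.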

Additional observations from a re-analysis of the deposited data

How the results depend on the processing

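The calls of Bcl2l1, Bax, Bcl2l11 and Bid kept their direction and their side of the threshold under every alternative run. Pmaip1 lost its call by DESeq2 with a prior on the fold change and no filter (log2 0.28, adjusted p = 0.176), chosen after the deposited values were seen; the cause was not tested. Bcl2 passed with TMM scaling (log2 0.12), by DESeq2 (0.12), by DESeq2 with the prior (0.12) and after the GC and length correction (0.16). With any 1 library left out, log2 differences were 0.0696 to 0.145 for Bcl2, 0.0274 to 0.128 for Mcl1, 0.00903 to 0.172 for Bak1 (0.0652 with all libraries) and -0.00564 to 0.0511 for Bad, which changed sign without control replicate 1. At a mean of at least 10 CPM Pmaip1 and Bak1 were not tested, and 1 of the other family genes rose in place of 6, since 5 were tested in place of 11. After the GC and length correction 7 regulators fell in place of 11. With replicate number as a block the same 5 members were called, and the log2 difference of Bax stayed at 0.42 (limma adjusted p = 0.000282). The labels do not say that numbers pair the pools, and deviations of same-numbered pools correlated at 0.0518, 0.0483 and -0.0120. Bak1, at 151 to 213 reads, and Pmaip1, with 2 control pools at 0, have the least depth.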
